A study of Homo sapiens with 9 samples.

Results

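A set of 10 genes of the SCF ubiquitin ligase and its E2 enzyme was followed: CDC34, its paralog UBE2R2, the subunits CUL1, RBX1 and SKP1, the modifier NEDD8, the F-box proteins SKP2, FBXW7 and BTRC, and the SKP2 cofactor CKS1B. They are 10 of the 15354 genes in the expression table, taken by symbol through the gene identifiers, and all 10 passed the filter on low values. The group was chosen by the fall of CDC34, over 3-fold in libraries of both siRNAs, and the other 9 were taken for their roles. Its fall against control is therefore described here without a test, and the tests below concern the other genes.

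RNA was sequenced from HCT116 cells, an epithelial line from a human colorectal carcinoma, after transfection with siRNAs against SNHG5, a long non-coding RNA host gene of snoRNAs. The 9 libraries fall into 3 groups of 3: a negative control siRNA, siRNA A and siRNA B. All were reverse transfected with RNAiMAX, at 25 nM per the labels and at another concentration by the study's methods, which also give the harvest at 36 h. The libraries were poly(A) selected and sequenced as single-end reads of 50 bases, and held 15566530 to 23277549 reads each. All groups are the same line and carry a transfected siRNA, and none was left untransfected. The study's methods call the replicates biological and the labels do not say whether they were separate cultures, so p-values measure the spread between these libraries. In bulk RNA, a change in all cells and a change in some of the cells cannot be told apart.

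The check of the targeted gene went against the labels. In counts per 1e6 reads (CPM), SNHG5 ranged over 26.3 to 35.6 for control, 50.0 to 63.9 for libraries labelled siRNA A and 45.2 to 47.8 for libraries labelled siRNA B. The gene overlaps an unnamed coding gene on its own strand, and counts per gene do not separate isoforms. Every direction below is thus a direction between libraries as labelled, not one with SNHG5 RNA shown by these counts to be lowered. The study itself reports knockdown of SNHG5 by both of its siRNAs in HCT116 cells, measured by qRT-PCR. The epithelial markers EPCAM (94.6 to 214 CPM), CDH1 (28.2 to 48.1), KRT8 (884 to 1601), KRT18 (395 to 683), KRT19 (514 to 1004) and CLDN3 (2.25 to 5.76) were present in all libraries. Of the markers of other cell types, the monocyte marker CD14 did not exceed 0.556 CPM and the stromal collagen COL1A1 ran from 8.55 to 19.5 CPM, while PTPRC, CD3E, COL1A2, DCN, PECAM1 and VWF were not among the rows analysed here. Their part in the results was not tested.

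An SCF ligase is built on the scaffold CUL1, which holds the RING protein RBX1 and, through the adaptor SKP1, an exchangeable F-box protein that picks the substrate. An E2 enzyme charged with ubiquitin, such as CDC34, docks on RBX1 and builds ubiquitin chains that send the substrate to the proteasome. Conjugation of NEDD8 to the cullin switches the ligase on. In colorectal epithelium these ligases are best known for degrading cell cycle regulators and beta-catenin, and FBXW7 is a tumour suppressor that is often mutated in colorectal cancer.

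CDC34 (ENSG00000099804.3) lies at chr19:531760-542092 and UBE2R2 (ENSG00000107341.4) at chr9:33817158-33920397, both on the plus strand of GRCh37. Their coding sequences, of 708 and 714 bases, matched at 518 of 708 aligned positions (73.2%). Reads of a paralog pair can be confused, so a stretch of 80 bases around their longest shared run is shown, 5′ to 3′. It lies in the coding part of exon 1 of each gene, at chr19:532019-532098 and chr9:33817843-33817922. Capitals mark the 69 bases that both genes share, and lower case the 11 that differ.
CDC34: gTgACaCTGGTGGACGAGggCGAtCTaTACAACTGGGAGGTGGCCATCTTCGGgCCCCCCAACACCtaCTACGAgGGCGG
UBE2R2: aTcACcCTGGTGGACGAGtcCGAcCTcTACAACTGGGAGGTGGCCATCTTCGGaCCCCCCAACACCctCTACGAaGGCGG
The longest run shared by the transcripts was 26 bases, shorter than a read of 50. None of the 50-base words of either transcript occurred in an annotated gene elsewhere, and genes overlapping its own locus were not counted. An exact read of CDC34 thus could not equally be one of UBE2R2.

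CDC34, which extends ubiquitin chains on SCF substrates, had per kilobase the highest mean of the 10 genes in control and the second lowest in the libraries labelled siRNA B, in each case with a range that overlapped other members. Its levels, in CPM scaled by the trimmed mean of M-values (TMM), were 77.4, 65.4 and 64.4 in the control libraries, 15.6, 18.1 and 14.3 in those labelled siRNA A, and 10.8, 8.91 and 10.1 in those labelled siRNA B. The 3 groups did not overlap, with control highest and siRNA B lowest. The counts behind these levels ran from 1475 to 1941 reads in control, 239 to 294 in siRNA A and 138 to 241 in siRNA B. Relative to control, the log2(CPM + 1) values differed by −2.05 (SE 0.13) for siRNA A and −2.68 (SE 0.13) for siRNA B, or 4.13-fold and 6.40-fold lower. CDC34 was the one member inside the 3-fold limit, and the nearest outside it were FBXW7 under siRNA A at 1.30-fold lower and SKP2 under siRNA B at 1.15-fold lower. The transcript of CDC34 had a GC content of 65.1%, against 40.9% to 51.9% for the others, and with a correction for GC content its differences were −1.77 and −2.51. Without scaling by TMM they were −2.40 and −2.89.

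UBE2R2, the close paralog of CDC34 with a similar chain-building activity, was not called lower with either siRNA in this fit. Its TMM-scaled CPM was 102, 91.7 and 102 in control, 104, 87.0 and 100.3 under siRNA A, and 119, 133 and 135 under siRNA B. The siRNA A libraries overlapped control, whereas the siRNA B libraries all lay above both. Against control, siRNA A gave a log2 difference of −0.02 with a 95% interval of −0.25 to 0.20 (limma adjusted p = 0.854). UBE2R2 rose under siRNA B by 0.38 on the log2 scale (limma adjusted p = 0.0139, SE 0.10), and siRNA A and B differed by −0.41 (adjusted p = 0.00939). With library totals alone the siRNA B rise lost its call (0.17, adjusted p = 0.258) and siRNA A was called lower (−0.39, adjusted p = 0.00953), and without control replicate 2 the rise was 0.31 (adjusted p = 0.0741).

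Per kilobase of transcript, the balance of the E2 pair turned. The ratio of CDC34 to UBE2R2 levels was 2.21 ± 0.196 (SD, n = 3) in control, 0.526 ± 0.113 under siRNA A and 0.245 ± 0.0375 under siRNA B. CDC34 RNA thus exceeded that of UBE2R2 in every control library and lay below it in every siRNA library. The sum of the pair was 70.8 ± 5.88 TMM-scaled CPM per kb in control, 33.0 ± 1.13 under siRNA A and 35.8 ± 1.51 under siRNA B. These values carry the fall that chose CDC34 and are a description. With the union of annotated exons as length, chosen after seeing the data, the ratios were 1.66, 0.394 and 0.183.

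**Figure D1:**
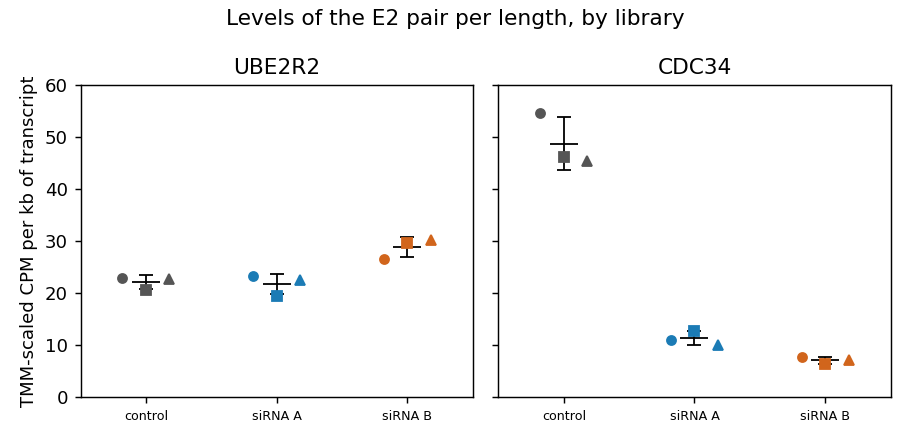
TMM-scaled CPM per kb of transcript (vertical axis) of UBE2R2 and CDC34 in each library, by group (horizontal axis). Points are libraries (circle, square and triangle for replicates 1, 2 and 3), and bars are the mean ± SD of 3; CDC34 lies near 48.7 in control and near 11.3 and 7.01 under siRNA A and B, while UBE2R2 goes from 22.0 to 21.7 and 28.8.

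Among the 10 genes, levels per kb in control ran from CDC34 at 48.7 ± 5.09 (SD, n = 3) through CUL1 at 38.3 ± 2.70 and NEDD8 at 35.9 ± 14.1 down to RBX1 at 3.14 ± 0.407 TMM-scaled CPM per kb. The ranges of CDC34 and NEDD8 overlapped, as did those of NEDD8 with CUL1, UBE2R2 and SKP2, of UBE2R2 (22.0 ± 1.35) and SKP2 (21.4 ± 2.97), of SKP1 (12.3 ± 1.60) and CKS1B (10.8 ± 0.849), and of FBXW7 (8.41 ± 1.28) and BTRC (6.87 ± 0.600). RBX1 lay below every other member in every control library. Under siRNA B, CDC34 (7.01 ± 0.669) had come down to the level of RBX1 (6.55 ± 0.415) and FBXW7, and its range overlapped both of theirs.

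Of the 9 members besides CDC34, 6 were called under siRNA A at a limma adjusted p under 0.05, and 4 under siRNA B. For siRNA A, 4 rose (RBX1, SKP1, NEDD8 and CKS1B) and 2 fell (CUL1 and FBXW7), where 51.4% of the 13893 tested genes were called, 23.9% as higher and 27.6% as lower. For siRNA B, 4 rose (UBE2R2, RBX1, SKP1 and CKS1B) and 0 fell by limma, edgeR or DESeq2, nor did any at an unadjusted limma p under 0.05. Of all tested genes 34.0% were called under siRNA B, 15.6% higher and 18.3% lower. With 9 genes chosen by role, the counts are a description beside these shares. With library totals alone, the split was 3 higher and 4 lower for siRNA A, and 1 higher and 1 lower for siRNA B. Over all tested genes, library totals alone called 1257 higher and 6532 lower for siRNA A, and 958 and 4127 for siRNA B. That scaling moved the median log2 difference of all tested genes from −0.02 to −0.34 for siRNA A and from 0.0043 to −0.18 for siRNA B, so changes below are relative to a median near 0. Both comparisons share the control libraries.

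**Figure D2:**
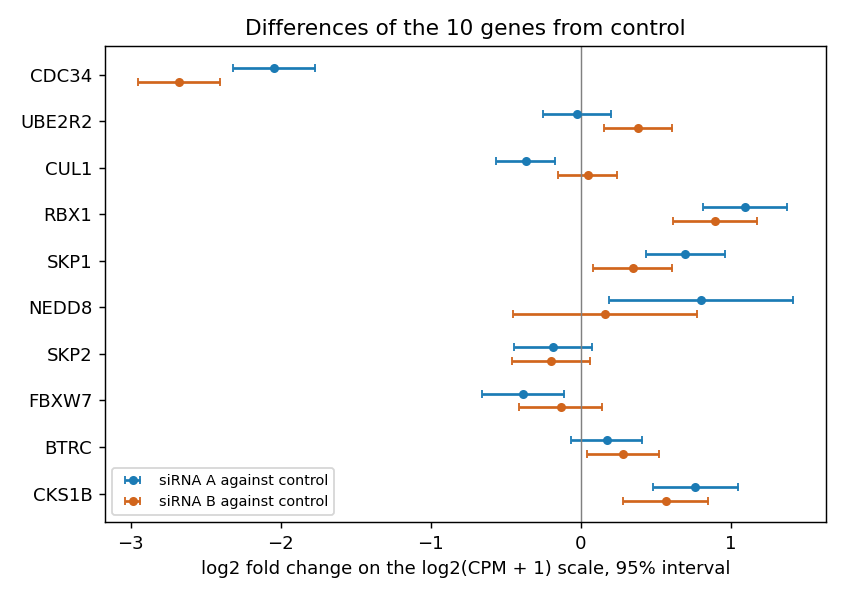
Log2 difference from control on the log2(CPM + 1) scale (horizontal axis) for each of the 10 genes, with 95% intervals from limma, for siRNA A (blue) and siRNA B (orange) over 3 libraries a group. CDC34 lies at −2.05 and −2.68, RBX1 is the highest for both siRNAs at 1.10 and 0.90, and the intervals of SKP2 cross 0 for both.

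The RING subunit RBX1 (ENSG00000100387.8, chr22:41347351-41369313), which recruits the charged E2, rose with both siRNAs. Its TMM-scaled CPM was 4.03, 3.13 and 3.84 in control, 9.68, 8.99 and 8.20 under siRNA A, and 8.19, 7.55 and 7.23 under siRNA B. All 6 siRNA libraries lay above all control libraries, on counts of 72 to 101 reads in control and 117 to 183 in the others. The log2 rise was 1.10 (limma adjusted p = 4.78e-05, SE 0.13) under siRNA A and 0.90 (limma adjusted p = 3.52e-04, SE 0.13) under siRNA B. These calls held in each alternative, library totals alone included. The siRNAs did not differ detectably from each other, at 0.20 with an interval of −0.08 to 0.48 (adjusted p = 0.241).

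The scaffold CUL1 (ENSG00000055130.10, chr7:148395006-148498202) was lower under siRNA A but not under siRNA B. Its TMM-scaled CPM was 111, 124 and 127 in control, 90.8, 92.1 and 96.1 under siRNA A, and 126, 127 and 120.4 under siRNA B. The siRNA A libraries lay below all others, and the siRNA B libraries within the control range. CUL1 fell by 0.37 on the log2 scale under siRNA A (limma adjusted p = 0.00522, SE 0.09), while under siRNA B the difference was 0.05 with an interval of −0.15 to 0.24 (adjusted p = 0.712). The siRNAs differed from each other by −0.42 (limma adjusted p = 0.00414).

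The adaptor SKP1 (ENSG00000113558.12, chr5:133484626-133512655), which joins F-box proteins to CUL1, rose most under siRNA A. Its TMM-scaled CPM was 120.2, 99.0 and 128 in control, 182, 207 and 175 under siRNA A, and 143, 162 and 136 under siRNA B. The order control, siRNA B, siRNA A held without overlap between groups. SKP1 rose by 0.70 under siRNA A (limma adjusted p = 5.86e-04, SE 0.12) and by 0.35 under siRNA B (adjusted p = 0.0434, SE 0.12), and the siRNAs differed by 0.35 (adjusted p = 0.0389). That siRNA B call was lost in 9 of the 16 alternatives, among them library totals alone (0.14, adjusted p = 0.363), the GC correction (0.27, adjusted p = 0.0861), and the fit that left out control replicate 2 (0.22, adjusted p = 0.211). Of the 50-base words of SKP1, 3.79% also occur in other genes, and the gene overlaps TCF7 on the opposite strand and an unnamed coding gene on its own.

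NEDD8 (ENSG00000129559.8, chr14:24686063-24701573), the ubiquitin-like activator of cullins, had the widest error of the members. Its TMM-scaled CPM was 30.1, 23.3 and 12.9 in control, 40.1, 38.2 and 33.5 under siRNA A, and 25.7, 15.7 and 32.0 under siRNA B. Control and siRNA B overlapped over most of their ranges, and siRNA A lay above both. NEDD8 rose by 0.80 under siRNA A (limma adjusted p = 0.0321, SE 0.28), and under siRNA B the difference was 0.16 with an interval of −0.45 to 0.77 (adjusted p = 0.693). The siRNA A call did not hold for library totals alone (0.44, adjusted p = 0.203), without control replicate 2 (0.86, adjusted p = 0.0539) or 3 (0.46, adjusted p = 0.146), and without any 1 of the siRNA A libraries (0.75 to 0.87, adjusted p from 0.0538 to 0.0812). The gene lies within the annotated readthrough gene NEDD8-MDP1 on the same strand, and 8.82% of its 50-base words recur in the pseudogene NEDD8P1.

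Of the 3 F-box members, FBXW7 alone was called under siRNA A in the main fit, and none was called under siRNA B. FBXW7 (ENSG00000109670.8, chr4:153241696-153457244), which targets cyclin E and MYC, stood at 51.2, 39.1 and 51.9 TMM-scaled CPM in control, 37.7, 32.4 and 37.6 under siRNA A, and 41.2, 41.1 and 46.2 under siRNA B. The siRNA A libraries lay below all control libraries and the siRNA B libraries between the control values. FBXW7 fell by 0.38 under siRNA A (limma adjusted p = 0.0235, SE 0.13), a call lost without control replicate 1 (−0.32, adjusted p = 0.0799), control replicate 3 (−0.32, adjusted p = 0.0933) or siRNA A replicate 2 (−0.31, adjusted p = 0.0831). Under siRNA B the difference was −0.13 with an interval of −0.41 to 0.14 (limma adjusted p = 0.441).

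SKP2 (ENSG00000145604.11, chr5:36152091-36196951), the F-box protein for the inhibitor p27, had TMM-scaled CPM of 66.8, 86.9 and 84.8 in control, 65.3, 70.4 and 72.3 under siRNA A, and 67.0, 76.1 and 63.7 under siRNA B. All groups overlapped, through the low control replicate 1. The log2 difference was −0.19 under siRNA A (interval −0.45 to 0.07, limma adjusted p = 0.209) and −0.20 under siRNA B (interval −0.46 to 0.06, adjusted p = 0.224). SKP2 was called lower with library totals alone (−0.55, adjusted p = 0.00249, and −0.41, adjusted p = 0.0235), and under siRNA A also without control replicate 1 (−0.31, adjusted p = 0.0493) or when corrected for GC content (−0.30, adjusted p = 0.0415). The gene overlaps NADK2 on the opposite strand, and 2.81% of its 50-base words recur in other genes.

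BTRC (ENSG00000166167.13, chr10:103113790-103317078), the F-box protein for beta-catenin and the NF-kappaB inhibitor NFKBIA, had TMM-scaled CPM of 38.1, 40.9 and 45.3 in control, 42.7, 45.1 and 52.7 under siRNA A, and 48.1, 52.6 and 50.8 under siRNA B. The siRNA B libraries all lay above control, and those of siRNA A overlapped both. Neither difference passed the main limma test, with 0.17 for siRNA A (interval −0.07 to 0.41, adjusted p = 0.209) and 0.28 for siRNA B (interval 0.04 to 0.52, adjusted p = 0.0661). DESeq2 called the siRNA B rise (0.30, adjusted p = 0.0468), as did limma with replicate numbers as a block (adjusted p = 0.0311). Whether the numbers pair siRNA B with control was not settled. Its paralog FBXW11, with which BTRC shares no run longer than 32 bases, stood at 51.6, 61.4 and 61.2 TMM-scaled CPM in control, 61.8, 63.9 and 66.0 under siRNA A, and 34.7, 36.02 and 29.0 under siRNA B. FBXW11 fell by 0.79 under siRNA B (limma adjusted p = 3.35e-04, SE 0.11), and its difference under siRNA A was 0.14 (adjusted p = 0.317).

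CKS1B (ENSG00000173207.7, chr1:154947129-154951727), the small cofactor that lets SKP2 bind phosphorylated p27, rose with both siRNAs. Its TMM-scaled CPM was 8.49, 7.69 and 8.999 in control, 15.9, 13.5 and 15.5 under siRNA A, and 14.1, 13.7 and 11.05 under siRNA B. All 6 siRNA libraries lay above control. The log2 rise was 0.76 under siRNA A (limma adjusted p = 4.99e-04, SE 0.13) and 0.57 under siRNA B (limma adjusted p = 0.00569, SE 0.13), the latter not called with library totals alone (0.37, adjusted p = 0.0546). Reads of CKS1B are uncertain, since 31.8% of its 50-base words recur in 7 other genes, led by its pseudogenes. Among the Cks proteins and SKP2 partners (CKS1B, CKS2, CDK2, CCNA2, SKP2 and SKP1), 2 of 6 rose with each siRNA, CKS1B and SKP1, and 0 fell by limma, edgeR, DESeq2 or at an unadjusted limma p under 0.05, beside 23.9% and 15.6% of all tested genes called higher. DESeq2 called 3 of the 6 higher under siRNA B, and by totals alone 2 were higher and 2 lower under siRNA A, and 0 higher and 1 lower under siRNA B.

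**Figure D3:**
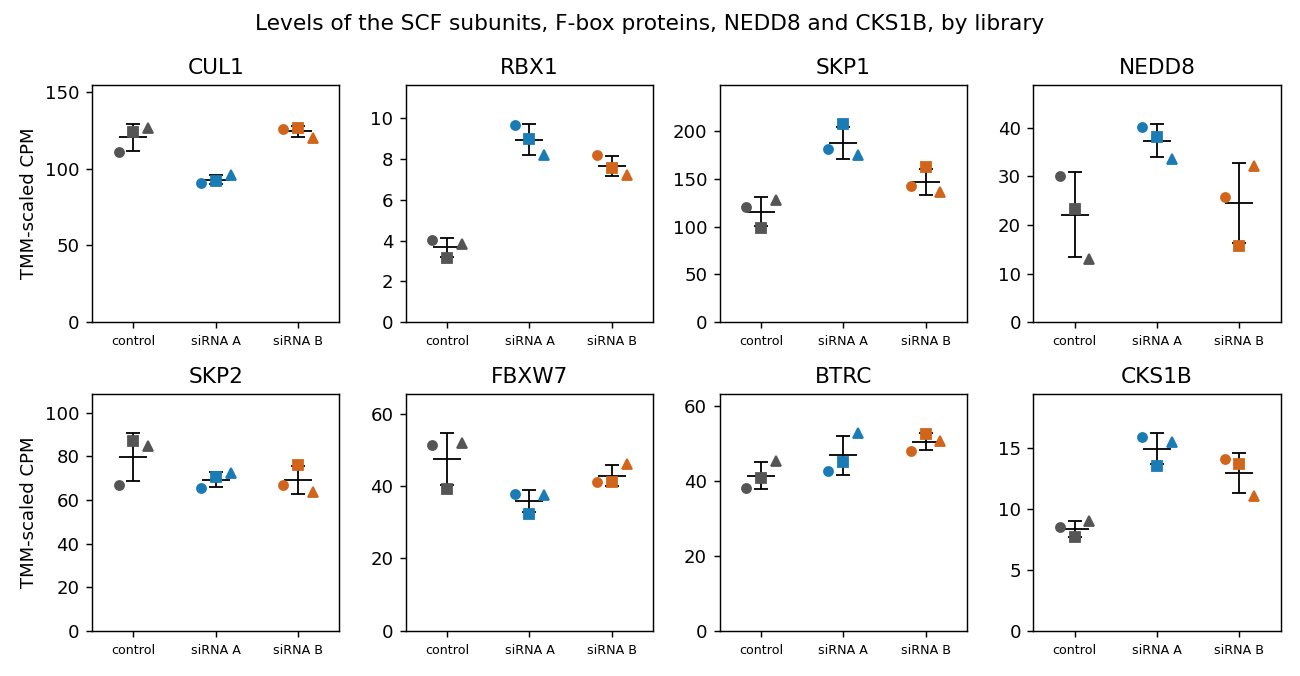
TMM-scaled CPM (vertical axes, each from 0) of the 8 members besides the E2 pair in each library, by group (horizontal axis). Points are libraries (circle, square and triangle for replicates 1, 2 and 3) and bars the mean ± SD of 3; RBX1 goes from a mean of 3.67 in control to 8.96 and 7.66, while NEDD8 spreads from 12.9 to 30.1 within control.

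Between the libraries labelled siRNA A and siRNA B, 3 of the 9 members differed (37.1% of all tested genes were called in that comparison): UBE2R2 and CUL1 were lower under siRNA A and SKP1 was higher. CDC34 lay 0.63 higher on the log2 scale under siRNA A than under siRNA B, given as a description. The SKP1 call did not hold for library totals alone (0.20, adjusted p = 0.183) and after removal of replicate 1 or 2 of siRNA A, or of replicate 1 or 3 of siRNA B (0.28 to 0.37, with adjusted p of 0.0667 to 0.127).

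The wider families around these genes were read from lists chosen with earlier results known, as counts beside the shares of all tested genes given above. Members other than CDC34 are counted again where a list holds them. F-box proteins, the substrate receptors, were called lower more often than higher under siRNA A. Of 58 tested, 6 were higher and 24 lower under siRNA A (median −0.20), and 7 were higher and 11 lower under siRNA B (median −0.07). FBXL16, an orphan F-box protein, fell by 1.48 under siRNA A and by 0.43 under siRNA B (limma adjusted p = 2.39e-06 and 0.00863), the latter not called after the GC correction (−0.26, adjusted p = 0.0860). KDM2B, a histone demethylase with an F-box, fell by 0.83 and 0.56 (adjusted p = 5.73e-05 and 0.00139), FBXO36 by 0.86 and 0.87 (9.85e-04 and 0.00175) and the glycoprotein receptor FBXO27 by 0.60 and 0.77 (0.00315 and 0.00130). FBXO36 rested on 68 to 108 reads in control, 17 to 31 under siRNA A and 21 to 39 under siRNA B. At such a low level the log2(CPM + 1) scale understates fold changes. KDM2B and FBXO36 each overlap a coding gene on the opposite strand, and the sources used here do not say whether counting used the strand. Scaled by library totals alone, the F-box counts were 2 higher and 38 lower under siRNA A, and 3 and 22 under siRNA B. With replicate numbers as a block they were 6 higher and 26 lower under siRNA A, and 9 and 14 under siRNA B.

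Cullins and their RING and adaptor partners went higher more often than lower under siRNA A. Of 14 tested, the members CUL1, RBX1 and SKP1 included, 9 rose and 3 fell under siRNA A (median 0.40). Under siRNA B 3 rose, RBX1 and SKP1 among them, and 1 fell (median 0.19). The cullins did not move as a block. CUL4B rose by 1.001 under siRNA A (limma adjusted p = 3.45e-04), CUL2, the scaffold of the VHL ligase, by 0.70 (4.90e-04), CUL4A by 0.37 (0.00698) and CUL5 by 0.32 (0.0354), while CUL3, which pairs with BTB proteins, fell by 0.61 (9.01e-04). Under siRNA B, CUL2 rose by 0.35 (limma adjusted p = 0.0382), and CUL3 (0.14), CUL4A (0.17), CUL4B (0.31) and CUL5 (0.19) were not called. limma with replicate numbers as a block called CUL4B under siRNA B (adjusted p = 0.0392), though whether the numbers pair siRNA B with control was not settled. RNF7, the RING partner of CUL5 and paralog of RBX1, differed by 0.15 under siRNA A (adjusted p = 0.344) and fell by 0.39 under siRNA B (adjusted p = 0.0318). RNF7 overlaps an unnamed coding gene on its own strand, and CUL2, CUL4A and CUL4B each overlap a coding gene on the opposite strand. Scaled by library totals alone, the counts were 5 higher and 3 lower for siRNA A and 1 and 1 for siRNA B, and CUL4A, CUL5 and the siRNA B rise of CUL2 were not called. After the GC correction CUL5 (0.13, adjusted p = 0.304) and the siRNA B rise of CUL2 (0.21, adjusted p = 0.201) were not called either.

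In the NEDD8 cycle, the enzymes that charge and transfer NEDD8, 4 of 11 rose and 4 fell under siRNA A, and 3 rose and 1 fell under siRNA B. DCUN1D3 and DCUN1D2, which assist transfer of NEDD8 to cullins, rose by 1.12 and 0.70 under siRNA A (limma adjusted p = 1.03e-04 and 2.68e-04) and by 0.99 and 0.51 under siRNA B (4.46e-04 and 0.00375). The NEDD8 E2 enzymes parted: UBE2M, which serves RBX1, rose by 0.62 and 0.58 (adjusted p = 0.00362 and 0.00844), and UBE2F, which serves RNF7, fell by 0.55 and 0.74 (0.00460 and 0.00142). UBE2F overlaps its readthrough gene on the same strand. DCUN1D3 overlaps ERI2 on the same strand and LYRM1 on the opposite one, and NAE1 overlaps CA7 on the opposite strand. Of the activating enzyme, NAE1 fell by 0.55 under siRNA A (limma adjusted p = 0.00297) and was at −0.08 under siRNA B (0.641), and UBA3 was at 0.12 and 0.13 (0.355 and 0.381). With library totals alone UBE2M was called with neither siRNA and DCUN1D2 not under siRNA B, and the counts were 2 higher and 4 lower, and 1 and 2.

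Cullin regulators, some of which take NEDD8 off cullins or exchange their receptors, were mostly higher under siRNA A with TMM scaling. With library totals alone few were called in either direction. Of 15, 11 rose under siRNA A, beside 23.9% of all tested genes, and 0 fell by limma, edgeR or DESeq2 or at an unadjusted limma p under 0.05 (median 0.44), and 5 rose and 2 fell under siRNA B (median 0.14). CAND1, the exchange factor for F-box proteins, rose by 0.76 and 0.46 (limma adjusted p = 7.01e-04 and 0.0207), the siRNA B rise not called after the GC correction (0.35, adjusted p = 0.0543). The COP9 signalosome subunits COPS4, COPS6 and COPS7B rose by 0.60, 0.64 and 0.54 under siRNA A (6.05e-04, 3.26e-04 and 0.00182) and by 0.46, 0.43 and 0.38 under siRNA B (0.00531, 0.00690 and 0.0191). Its catalytic subunit COPS5 rose by 0.37 under siRNA A (adjusted p = 0.00358) and was at 0.22 under siRNA B (0.0638). DESeq2 called the siRNA B rise of COPS5 (0.23, adjusted p = 0.0191). COPS5 overlaps PPP1R42 on its own strand and CSPP1 on the opposite one, and COPS7B overlaps PDE6D on the opposite strand. In the fit with replicate numbers as a block, 12 were higher and 1 lower under siRNA A: it added GLMN (0.36, adjusted p = 0.0312) and COPS9 (−0.46, adjusted p = 0.0239), both named after their values were seen. With library totals alone, 2 were higher (CAND1 and COPS6) and 1 lower under siRNA A, and 0 higher and 3 lower under siRNA B. Of all 13893 tested genes, that scaling called 1257 higher and 6532 lower under siRNA A, and 958 and 4127 under siRNA B.

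Ubiquitin, its activating enzymes and its E2 enzymes other than CDC34 were mostly higher with TMM scaling. With library totals alone fewer were called higher, as was so for all tested genes. Of 36 tested, UBE2R2 included, 20 were higher and 3 lower under siRNA A (median 0.34), and 19 were higher and 4 lower under siRNA B (median 0.28). The polyubiquitin gene UBB rose by 0.78 under siRNA A (limma adjusted p = 2.69e-04) and by 0.78 under siRNA B (5.34e-04). UBE2D3 and UBE2G1, other E2 enzymes that work with cullin ligases, rose by 0.61 and 0.56 under siRNA A (2.50e-04 and 9.84e-04) and by 0.37 and 0.61 under siRNA B (0.00968 and 0.00115), and UBA1, the main activating enzyme, by 0.36 and 0.33 (0.0179 and 0.0374). UBE2L6, the E2 for the modifier ISG15, fell by 0.86 and 1.13 (2.51e-04 and 8.57e-05). By totals alone, 8 were higher and 8 lower under siRNA A, and 8 and 5 under siRNA B. Of all 13893 tested genes, that scaling called 1257 higher and 6532 lower under siRNA A, and 958 and 4127 under siRNA B. By totals alone UBE2D3 and UBA1 were called with neither siRNA and UBE2G1 not under siRNA A. The siRNA B rise of UBE2D3 was not called after the GC correction (0.23, adjusted p = 0.0571).

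Genes whose proteins SCF ligases degrade moved both ways in RNA. Of 35 tested, 18 were higher and 9 lower under siRNA A (median 0.40), and 10 were higher and 6 lower under siRNA B (median 0.14). The CDK inhibitor CDKN1A, a SKP2 substrate, rose by 0.91 and 1.72 (limma adjusted p = 5.73e-05 and 1.71e-06), CDKN1B, which encodes p27, by 0.54 and 0.47 (0.00441 and 0.0146), and the mitotic kinase WEE1 by 1.17 and 0.84 (1.83e-05 and 3.19e-04). NFKBIA rose by 1.81 and 0.76 (1.81e-04 and 0.0411). The cell cycle factor E2F1 fell by 1.67 and 1.09 (2.39e-05 and 7.20e-04) and cyclin E1, CCNE1, by 0.32 and 0.79 (0.0150 and 1.29e-04). Scaling by totals alone gave counts of 6 higher and 15 lower, and 4 and 9, with which CDKN1B was called with neither siRNA, and NFKBIA was not called under siRNA B. CDKN1B overlaps GPR19 on the opposite strand. Protein levels and ubiquitination were not measured in these libraries.

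**Figure D4:**
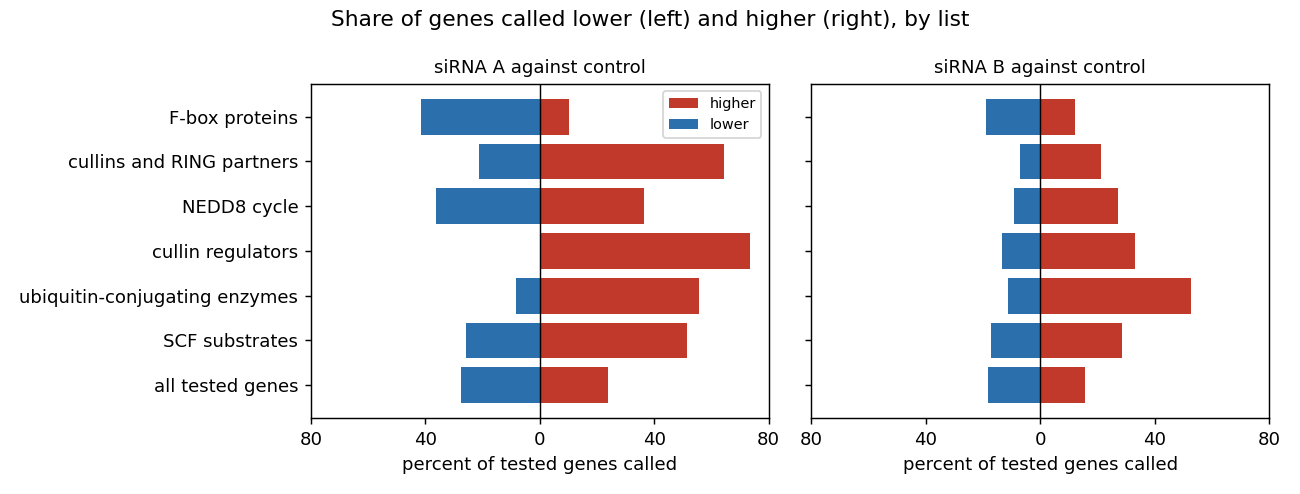
Percent of the tested genes of each list called higher (red, to the right) and lower (blue, to the left) against control by limma without a replicate block, for siRNA A and siRNA B, with all tested genes in the bottom row. The bottom row stands at 23.9% higher and 27.6% lower for siRNA A and 15.6% and 18.3% for siRNA B, and no cullin regulator was called lower under siRNA A.

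Around CDC34 on chromosome 19, only coding genes held in the expression table were taken as neighbours, so genes absent from it were passed over. The nearest neighbours on both sides were not called lower, and 1 of the 6, MIER2, fell with both siRNAs. TPGS1, a tubulin-modifying subunit that ends 12106 bases upstream, was not called, at −0.25 under siRNA A (limma adjusted p = 0.182) and −0.12 under siRNA B (0.556), but was called lower under siRNA A by totals alone (−0.55, adjusted p = 0.00905). BSG, which encodes basigin and starts 29185 bases downstream, rose by 0.40 and 0.69 (adjusted p = 0.0153 and 0.00121), though for siRNA A not with library totals alone (0.04, adjusted p = 0.820). MIER2, the third upstream among coding genes in the table, fell by 1.04 and 0.80 (7.23e-05 and 7.31e-04). HCN2 fell by 0.41 under siRNA A (0.0417) but not after the GC correction (−0.21, adjusted p = 0.256) and was at 0.32 under siRNA B (0.124). POLRMT fell by 0.33 under siRNA B (limma adjusted p = 0.0237) but not after the GC correction (−0.17, adjusted p = 0.213). Under siRNA A it was at 0.24 (adjusted p = 0.0624), a difference called higher after the GC correction (0.51, adjusted p = 0.00120), by DESeq2 (0.27, adjusted p = 0.0284) and once replicate numbers were blocked (adjusted p = 0.0442). C2CD4C passed with neither siRNA (−0.15, adjusted p = 0.525, and 0.36, adjusted p = 0.160), but was called higher under siRNA B after the GC correction (0.50, adjusted p = 0.0454).

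The genes whose levels ran most like those of CDC34 over the 9 libraries were the transcription factor SOX4 (Pearson r = 0.999 on log2 values), LAMTOR1, a lysosomal Ragulator subunit (0.995), FAM83F (0.994) and BCL7A (0.994). SOX4 stood at 160.4, 149.8 and 149 TMM-scaled CPM in control, 48.1, 55.5 and 43.2 under siRNA A, and 34.8, 29.2 and 34.8 under siRNA B, in the same order of groups as CDC34. The most opposed were the non-coding MIR100HG (−0.993) and ADSL (−0.991). LAMTOR1 overlaps coding genes on the opposite strand, and MIR100HG and ADSL overlap coding genes on their own. Within the ligase, the values were −0.888 for RBX1, −0.843 for CKS1B, −0.799 for BTRC, −0.656 for SKP1, −0.595 for UBE2R2, −0.266 for NEDD8, 0.159 for CUL1, 0.465 for FBXW7 and 0.530 for SKP2. These coefficients describe 3 clusters of libraries that share their treatment, and no test was made of them.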

How the data were processed

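The deposited table held CPM per gene for 9 HCT116 libraries. Per the labels, the authors used TopHat2 and HTSeq on GRCh37 (hg19), with versions and strand setting not given in the sources used here. CPM times the library total gave whole reads in 100% of values (tolerance 0.001 reads), so depth was known: 15566530 to 23277549 reads, of which the rows held 99.86% to 99.90%. The CPM of 3 reads, 0.129 to 0.193, marks the counting floor, and counting intervals were not needed.

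From these values, CPM was divided by TMM factors (edgeR 4.0.16), and 13893 of 15354 genes, those reaching 1 CPM in 3 or more libraries, were kept. log2(value + 1) was fitted by limma 3.58.1 in 1 model of 3 groups, with Benjamini-Hochberg adjustment over all tested genes and a threshold of 0.05. Such fold changes understate those of low genes. Count tests by edgeR and DESeq2 1.42.0 on the recovered reads, library totals alone, a pseudocount of 0.1, no filter, a GC correction, a replicate block and the removal of each library in turn were alternatives. The scripts were tested on simulated data.

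GENCODE lifted to GRCh37 gave symbols for 14871 identifiers (483 unmatched), coordinates and lengths of canonical transcripts. Replicates of a group correlated at 0.983 to 0.994 and none was closer than sampling noise. Deviations from group means in libraries of the same number correlated at 0.65, 0.41 and 0.13 between control and siRNA A. They correlated at 0.17, 0.44 and −0.39 between siRNA B and control, and at 0.20, 0.44 and 0.02 between siRNA A and B. Libraries of different numbers were not compared, so these values do not settle whether the numbers mark pairs. The main fit used no pairing, and the replicate block was an alternative.

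All 10 members were described. From each list, up to 4 genes called in the same direction with both siRNAs were named by size. The rule added a preset set (FBXW11, RNF7, cullins, UBE2M, UBA3, NAE1, UBE2D3, UBE2G1, CAND1, COPS5, UBA1, CDKN1B and CCNE1). It also added 4 genes most like CDC34, 2 most opposed and, of coding genes in the table, the 3 nearest on each side. A gene that this rule names is not reported here. Members and lists were chosen with earlier results of these data known.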

Additional observations from a re-analysis of the deposited data

Results flagged for a closer look

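For 3 genes the libraries labelled siRNA A and siRNA B differed from each other in the limma fit, so that the difference from the shared control was not the same for both. UBE2R2 was 0.41 lower on the log2 scale with siRNA A than with siRNA B (−0.406, adjusted p = 0.00939), CUL1 was 0.42 lower (−0.416, adjusted p = 0.00414) and SKP1 was 0.35 higher (0.351, adjusted p = 0.0389). The cause was not tested.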

How the results depend on the processing

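Over the 9 members besides CDC34, 3 comparisons and 16 alternatives, 381 values kept their direction and their side of the threshold, 26 lost a call, 10 gained one and 15 changed sign, the last for differences that were not called. The number of members called with siRNA B, 4, became 2 with library totals alone and ranged from 2 (without control replicate 2) to 4 over the removal of each library, and that with siRNA A, 6, ranged from 4 to 6. CDC34 stood at −2.40 and −2.89 with library totals alone, and at −1.77 and −2.51 with the GC correction. Signs changed for UBE2R2 with siRNA A (0.0085 by DESeq2, and −0.087 to 0.052 without 1 library), BTRC with siRNA A (−0.19 with library totals alone), CUL1 with siRNA B (−0.16 with library totals alone, −0.018 to 0.073 without 1 library), NEDD8 with siRNA B (−0.043 with library totals alone, −0.18 to 0.44 without 1 library) and SKP2 between the siRNAs (−0.14 with library totals alone, −0.022 with the GC correction, −0.045 to 0.082 without 1 library). The replicate block called 6 members with siRNA A, 5 with siRNA B and 3 between the siRNAs; it added BTRC with siRNA B (0.28, adjusted p = 0.0311) and changed no other call. With all genes, library totals alone called 1257 higher and 6532 lower with siRNA A, against 3314 and 3831. Causes were not tested. Among the members, depth limits RBX1 most, with 72 reads in its lowest library.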
